A study of Mus musculus with 2 samples.

Results

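Of the 43346 mouse genes in the deposited tables, 10 genes of epithelial cell contacts and their keratin cytoskeleton are described here in the liver of mouse embryos at embryonic day 12.5. They were chosen by name: the keratins Krt8 and Krt18, the adhesion genes Cdh1 and Epcam, the tight junction scaffold Tjp1, the tight junction membrane protein Ocln, and the claudins Cldn1, Cldn2, Cldn3 and Cldn14. Total RNA was sequenced in 2 libraries of 1 group, B6NCrl livers with no treatment or genetic change in the labels. The livers of 120 embryos were pooled for replicate 1 and those of 88 other embryos for replicate 2, with both sexes mixed, and 10 ng of RNA went into each library. With 1 group there is no condition to compare, so the data give the level of each gene and how far the 2 pools differed. Levels are in TPM, a transcript abundance that is scaled by length and can be compared between genes, and an SD is over the 2 libraries (n = 2).

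Hepatoblasts, the precursors of hepatocytes and bile duct cells, are epithelial cells, and the hepatocytes they give rise to form bile canaliculi between them. E-cadherin, the product of Cdh1, holds neighbouring cells together at adherens junctions through catenins. Tight junctions seal the space above them with claudins and occludin, which bind scaffolds such as ZO-1, the product of Tjp1. Keratins 8 and 18 pair, as a type II and a type I chain, to form the intermediate filaments of simple epithelia, and they are the keratins of adult hepatocytes.

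The libraries held 37.6 M and 34.7 M expected counts (estimated reads), of which spike-ins took 2.94% and 3.19%. Marker genes were read alongside the tissue label. Their lists were chosen with earlier results of these data known, so they are not an independent check of it. All 8 hepatoblast markers were detected, meaning a TPM of at least 1 in both libraries, with summed TPM of 8159 and 7995. All 5 erythroid markers (summed TPM 1476 and 1484), all 6 endothelial markers (93.4 and 91.5), all 6 stellate and mesenchymal markers (415 and 425) and 3 of 5 mesothelial markers (17.6 and 18.9) were detected too. None of the 6 markers of gut, pancreas and lung epithelium was detected, with summed TPM of 1.46 and 1.38 and 1 of them, Nkx2-1, without a read. These are bulk samples, so fewer cells of a type and less RNA per cell cannot be told apart, and the cells that carried each transcript cannot be told apart either.

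The transcript tables bear on 1 known splice choice among these genes, and its sequence is shown first. Tjp1, at chr7:65296165-65527781 on the minus strand, has 2 full-length coding models. The longer (ENSMUST00000102592) has 28 exons and 1745 codons, and the shorter (ENSMUST00000032729) has 27 exons and 1685 codons. Exon 20 of the longer model, at chr7:65314093-65314332, is a coding exon of 240 bases, or 80 codons, that is absent from the shorter one. It encodes the alpha domain of ZO-1, whose absence is best known from endothelial cells and podocytes, and the models are called alpha-plus and alpha-minus here. The alpha-minus model also holds 60 coding bases, at chr7:65299670-65299729, at the end of its exon 26 that the alpha-plus model lacks. The whole alpha-plus model is 7049 bases long and the alpha-minus model 6102, so they also differ outside these coding segments. In the mm10 sequences below, printed 5′ to 3′ on the transcript's strand, capitals mark the alternative coding bases. Lower case marks 30 flanking coding bases on each side.
Alpha-plus Tjp1 across the alpha exon: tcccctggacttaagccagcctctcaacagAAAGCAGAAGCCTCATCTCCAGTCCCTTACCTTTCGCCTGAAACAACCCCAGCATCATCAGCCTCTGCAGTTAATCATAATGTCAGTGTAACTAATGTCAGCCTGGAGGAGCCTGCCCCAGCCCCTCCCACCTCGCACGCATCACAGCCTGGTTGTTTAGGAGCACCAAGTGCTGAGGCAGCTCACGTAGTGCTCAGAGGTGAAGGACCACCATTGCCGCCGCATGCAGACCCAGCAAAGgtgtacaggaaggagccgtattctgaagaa
Alpha-minus Tjp1 across the same place: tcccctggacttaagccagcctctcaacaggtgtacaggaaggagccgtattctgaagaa
Alpha-minus Tjp1 near its last exon: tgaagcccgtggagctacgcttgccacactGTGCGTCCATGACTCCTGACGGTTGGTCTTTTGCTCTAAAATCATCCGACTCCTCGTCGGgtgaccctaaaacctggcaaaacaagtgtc
Alpha-plus Tjp1 at the same place: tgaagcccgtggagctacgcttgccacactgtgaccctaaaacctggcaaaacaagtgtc

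Of the 10 genes, 7 were detected, against 29.6% of all mouse genes. The keratin pair stood highest, Cldn1, Cdh1, Tjp1 and Ocln lay between 5.76 and 13.3 TPM, Epcam was at 2.26 and 1.45 TPM, and Cldn3, Cldn14 and Cldn2 were below 1 TPM. The median of the 10 genes' mean TPM was 6.13, compared with 12.7 for all detected genes and 0.030 for all mouse genes. In this order only Krt8 and Krt18 had library values that overlapped between neighbours. The deposited credibility intervals of TPM overlapped as well for Tjp1 and Ocln, for Cldn3 and Cldn14, and for Cldn14 and Cldn2. The order of these neighbours was therefore not resolved. The confidence level of those intervals is not given in the sources used here.

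**Figure D1:**
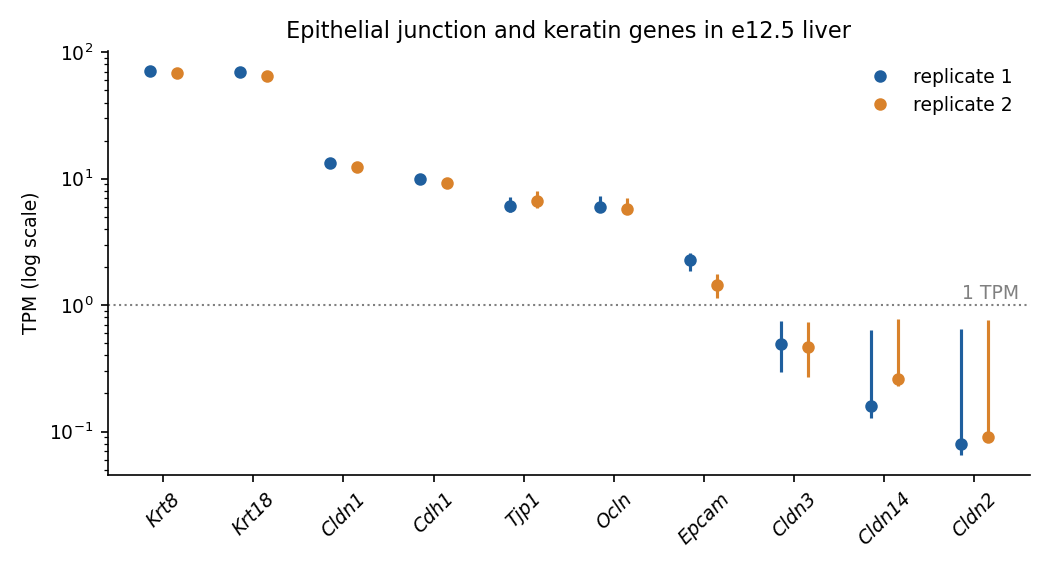
TPM (log scale) of the 10 genes in replicate 1 and replicate 2, with vertical lines for the deposited credibility intervals and a dotted line at 1 TPM. The genes span from 0.08 TPM for Cldn2 to 71.4 TPM for Krt8, and 3 claudins lie below 1 TPM in both libraries.

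Krt8, the type II chain of the simple epithelial keratin filament (chr15:101996698-102004482, minus strand), was at 71.4 TPM in replicate 1 and at 68.0 in replicate 2, from 3832 and 3380 reads. Krt18, its type I partner on the opposite strand 23.7 kb away (chr15:102028180-102032027), was at 69.4 and 64.8 TPM, from 2842 and 2458 reads. They stood above 86.1% and 85.5% of the 12841 detected genes. The partners were close to each other in level: the ratio of Krt8 to Krt18 TPM was 1.03 in replicate 1 and 1.05 in replicate 2 (mean 1.04 ± 0.0145 SD). By reads alone it was 1.35 and 1.38, since the Krt8 transcript is the longer one. Each gene has 1 annotated transcript. A long noncoding gene on the opposite strand, Gm36026, covers 271 bases of Krt8 and was not analysed here. Strandedness is not given in the sources used here, so reads of the pair cannot be told apart over those bases.

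The keratin family gave a simple epithelial pattern. Of 54 keratin genes, 32 had no read in either library and 6 were detected. Krt8 and Krt18 together held 79.5% of keratin TPM in replicate 1 and 79.6% in replicate 2. Krt20, a type I keratin best known from gut epithelium, came next at 21.5 and 20.4 TPM, so Krt18 was 3.21 ± 0.0414 (SD) times as high. The bile duct keratins Krt7 (5.20 and 5.28 TPM) and Krt19 (5.92 and 3.47 TPM) were lower. Krt8 exceeded Krt7, the other type II chain, 13.3 ± 0.597 (SD) times. Krt18 exceeded Krt19 11.7 times in replicate 1 and 18.7 times in replicate 2. The epidermal keratin Krt10 was at 1.47 and 1.74 TPM, and Krt14, a basal-layer and mesothelial keratin, at 0.99 and 1.46 TPM. From the list of 14 stratified and other keratins, Krt10 alone was detected and 7 had no read. Vim, the intermediate filament of mesenchymal, endothelial and blood cells, was at 106 and 99.8 TPM. The ratio of Krt8 to Vim was 0.678 ± 0.00427 (SD).

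Cdh1, which encodes E-cadherin (chr8:106603351-106670246, plus strand), was at 9.95 and 9.26 TPM, from 1340 and 1169 reads. It stood above 42.7% of the detected genes, and Cldn1 above 50.1%. Its full-length coding transcript held 98.1% of Cdh1 TPM in replicate 1 and 100% in replicate 2. Cdh2, the N-cadherin gene, which hepatoblasts also use and which mesenchymal cells share, was higher at 24.1 and 24.8 TPM. Its ratio to Cdh1 was 2.42 and 2.68. Of the 8 other cadherins listed, 4 were detected, and after Cdh2 the highest were the mesenchymal Cdh11 (10.1 and 11.9 TPM) and the endothelial Cdh5 (7.94 and 8.22 TPM).

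Of 12 other adherens junction genes (catenins, linkers and the nectin adhesion molecules), 9 were detected, 3 of them nectins, with a median of 17.4 TPM over the 12. It was led by Ctnnb1 (beta-catenin) at 115 and 114 TPM, Ctnna1 (alpha-catenin) at 44.5 and 42.6 TPM, and the actin linker Vcl at 32.2 and 30.5 TPM. Ctnnb1 was 11.6 times as high as Cdh1 in replicate 1 and 12.3 times in replicate 2. Beta-catenin also acts in Wnt signalling, and all of these genes are used by non-epithelial cells.

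Epcam, a homophilic adhesion molecule of early endoderm and of bile duct cells (chr17:87635979-87651129, plus strand), was at 2.26 TPM in replicate 1 and at 1.45 in replicate 2. These values rest on 138 and 82 reads, and the deposited intervals, 1.86 to 2.60 and 1.14 to 1.76 TPM, did not overlap. Epcam was the lowest of the detected genes described here, above 8.70% of all detected genes. Cdh1 exceeded it 4.40 times in replicate 1 and 6.39 times in replicate 2. Among its relatives and partners, 4 of 7 were detected. The tetraspanin genes Cd9 (81.2 and 76.7 TPM) and Tspan8 (39.1 and 41.0 TPM) and the protease inhibitor gene Spint2 (23.4 and 21.5 TPM) were the highest. Cldn7, whose protein binds EpCAM, was at 2.90 and 2.40 TPM.

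Tjp1 was at 6.09 and 6.66 TPM, from 1094 and 1048 reads. It is overlapped on the same strand by Gm44792 (1628 bases) and Gm44794 (411 bases), and on the opposite strand by Gm44795 (319 bases). These were not analysed here. Tjp3, the ZO-3 gene, was below the detection floor at 0.58 and 0.45 TPM. Of the 13 other scaffold and polarity genes listed, 12 were detected, with a median of 4.09 TPM. The highest were the polarity kinase gene Prkci (10.9 and 11.1 TPM), its partner Pard3 (7.40 and 8.39 TPM) and Mpp5, which encodes the Pals1 scaffold (7.58 and 8.08 TPM).

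Ocln, which encodes the 4-pass tight junction protein occludin (chr13:100496507-100552718, minus strand), was at 6.02 and 5.76 TPM, from 598 and 523 reads. Tjp1 and Ocln were close in level, with a ratio of 1.01 in replicate 1 and 1.16 in replicate 2. Of 9 other tight junction membrane genes, 5 were detected. The junctional adhesion molecule gene F11r (25.1 and 24.7 TPM) and the tricellular junction receptor gene Lsr (24.4 and 23.5 TPM) were the highest, followed by Cxadr (11.4 and 10.7 TPM). F11r exceeded Ocln 4.23 ± 0.0889 (SD) times. Marveld2, the tricellulin gene related to Ocln, was at a similar level to it, at 6.36 and 5.59 TPM.

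Cldn1, a sealing claudin of hepatocytes and bile ducts (chr16:26356642-26371841, minus strand), was at 13.3 and 12.4 TPM, from 1315 and 1133 reads. It was the only claudin of the 4 described to be detected. Cldn3, another claudin of hepatocytes and bile duct cells (chr5:134986214-134987472, plus strand), was at 0.49 and 0.47 TPM from 18 and 16 reads. Cldn1 was 26.7 ± 0.569 (SD) times as high. Wbscr25 overlaps Cldn3 on the opposite strand by 40 bases and had 0 reads in both libraries.

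Cldn14 (chr16:93919031-94008837, minus strand), whose protein tightens junctions of inner ear, kidney and liver, was at 0.16 and 0.26 TPM from 4 and 9 reads. Gm49618, a sense-intronic gene on the same strand, overlaps Cldn14 by 1145 bases and was not analysed here. Cldn2 (chrX:139800828-139811386, plus strand), which forms a cation and water pore and is known from hepatocytes near the central vein, was at 0.08 and 0.09 TPM from 7 and 8 reads. A count of 3 reads would have been 0.123 and 0.0882 TPM for Cldn14 and 0.0324 and 0.0350 TPM for Cldn2. At this depth the level of both depended on the estimator. The deposited posterior mean TPM was 0.36 and 0.48 for Cldn14 and 0.30 and 0.37 for Cldn2, which remain below 1 TPM. Their transcript shares rest on too few reads to be read.

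**Figure D2:**
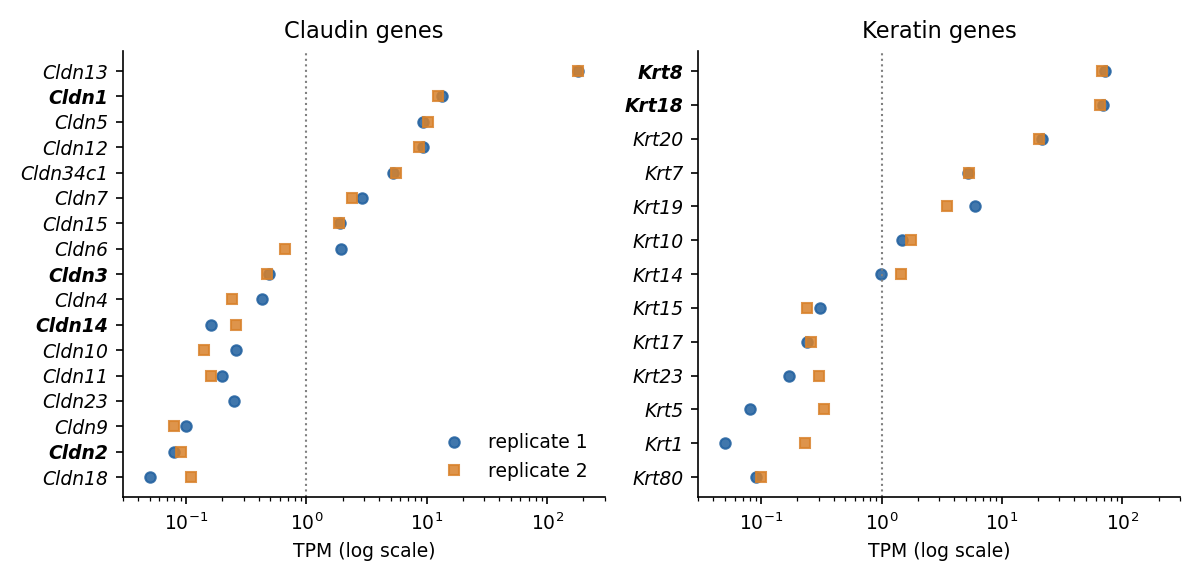
TPM (log scale) of claudin genes (left) and keratin genes (right) with a mean of at least 0.08 TPM in each library, the genes described here in bold and a dotted line at 1 TPM. A value of 0 is not drawn. Cldn13 at 181 and 180 TPM stands apart from the other claudins, and Krt8 and Krt18 stand above the other keratins.

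Within the claudin family, Cldn1 was the second highest of 33 genes, of which 7 were detected and 13 had no read. Cldn13, a rodent claudin known from red cell precursors, was at 181 and 180 TPM and held 79.8% and 80.6% of claudin TPM. It lies 70.7 kb from Cldn3 on chromosome 5, with Cldn4 (0.43 and 0.24 TPM) 39.3 kb from Cldn3. The 4 claudins described took 6.16% of claudin TPM in replicate 1 and 5.88% in replicate 2 (mean 6.02% ± 0.195 SD), or 30.4% ± 0.0924 (SD) of what remained without Cldn13. The endothelial Cldn5 was at 9.35 and 10.3 TPM and Cldn12 at 9.33 and 8.54 TPM. Cldn34c1 was listed at 5.26 and 5.60 TPM, from 185 and 196 reads, with a deposited posterior SD of 3.15 and 3.45 reads. Cldn15, a pore-forming claudin of the gut, was at 1.91 and 1.88 TPM. Cldn6, a claudin of embryonic epithelia, was at 1.94 TPM in replicate 1 and at 0.66 in replicate 2. The posterior SD of the counts was 0 for all 10 genes described, so the tables carry no uncertainty from reads shared with other genes for them.

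Turning to isoforms, 5 of the 10 genes have 1 transcript model, and 3 of the detected ones (Cdh1, Tjp1 and Ocln) have several. In all 3 the transcript with the largest estimated share of TPM was the same in both libraries, though for Ocln it was not resolved from the next. The alpha-plus model of Tjp1, printed above, had 4.59 and 4.23 TPM, or 75.4% and 63.5% of Tjp1. The alpha-minus model had 0.36 and 0.95 TPM, or 5.91% and 14.3%, from 67.4 and 166 estimated reads. Of these full-length models alone, the alpha-minus one took 7.27% in replicate 1 and 18.3% in replicate 2. Its deposited intervals, 0.183 to 0.628 and 0.608 to 1.34 TPM, overlapped at their edges. The 60 extra bases are also in the processed transcript of 699 bases, so they do not mark the alpha-minus model alone. The full-length models also differ outside the printed coding segments, and the tables do not show which feature the alpha-minus reads came from. The remaining 18.7% and 22.2% were given to that processed transcript, from 21.6 and 25.9 estimated reads.

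Ocln was spread over more models. Ocln-202 held 45.8% and 45.4% of its TPM, Ocln-201 38.7% and 31.9%, Ocln-203 15.4% and 16.8%, and Ocln-205 0% and 5.89%. The deposited intervals of Ocln-202 and Ocln-201 overlapped in both libraries, so their order was not resolved. They were 2.19 to 3.28 and 1.30 to 2.89 TPM in replicate 1, and 2.02 to 3.09 and 0.795 to 2.40 TPM in replicate 2. Ocln-201, Ocln-202 and Ocln-205 have a coding sequence of 521 codons each, and together they held 84.6% and 83.2% of Ocln TPM. The starts of Ocln-201 and Ocln-202 lie 220 bases apart. Ocln-203 has 272 codons and lacks 2 exons of Ocln-201, 790 bases in all. Its deposited interval began at 0.0000622 TPM in replicate 1 and at 0.285 TPM in replicate 2, so its presence was not resolved in replicate 1.

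**Figure D3:**
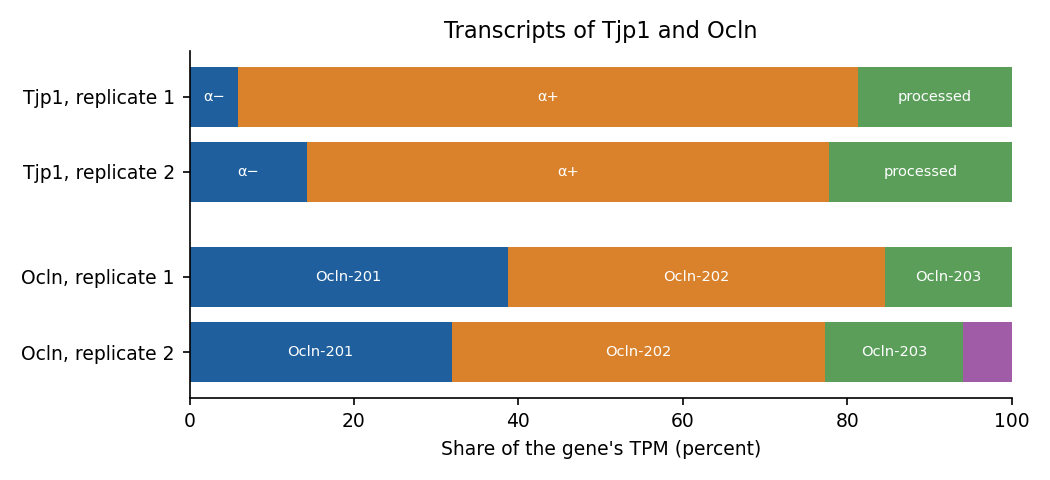
Share of the gene's TPM (percent) held by each annotated transcript of Tjp1 and Ocln in replicate 1 and replicate 2, with α+ and α− for alpha-plus and alpha-minus; the segment at the right end of the last bar is Ocln-205. Alpha-minus Tjp1 takes 5.91% in replicate 1 and 14.3% in replicate 2, and Ocln-202 takes 45.8% and 45.4%.

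The pools were close for most of these genes. A gene was taken to differ between pools when its TPM, plus 0.1, was at least 25% higher in either library than in the other, and genes averaging under 50 expected counts were not read. Of the 7 genes that could be read, 1 passed, Epcam, against 8.68% of all such genes (3.76% higher and 4.92% lower in replicate 1). The other 6 had TPM ratios between 0.914 for Tjp1 and 1.07 for Cdh1, Cldn1 and Krt18. For 6 of the 7 the ratio was above 1, against 52.1% of all genes, and the median log2 ratio was 0.10 against 0.01 over all genes. Centring on the ERCC spike-ins instead adds 0.12 to every log2 ratio and puts Tjp1 at -0.01.

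Epcam had a log2 ratio of 0.61, replicate 1 over replicate 2. From its reads the fold was 1.55, with an exact 95% Clopper-Pearson counting interval of 1.17 to 2.07. Among genes with a mean count of 50 to 200, where Epcam lies, 31.5% passed this difference in either direction and 14.4% passed it with the higher value in replicate 1. Its level differed between the pools by more than counting error, and a difference past 25% was common at this depth. With 1 library a pool, the spread within a pool was not measured.

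Krt18 was the other gene whose counting interval excluded 1, with a fold of 1.07 (1.01 to 1.13). That made 2 of 7, against 25.4% of all genes (12.1% higher in replicate 1). The interval of Krt8, 0.998 to 1.10, included 1 and overlapped that of Krt18. Tjp1 was the only gene of the 7 that was lower in replicate 1. Its ratio was 0.914 by TPM and 0.963 by reads (0.884 to 1.05), because its effective length was 5703 bases in replicate 1 and 5401 bases in replicate 2, where more of it was assigned to shorter transcripts. For Cldn3 (0.499 to 2.17), Cldn14 (0.0922 to 1.47) and Cldn2 (0.249 to 2.55) no difference was detectable at this depth.

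**Figure D4:**
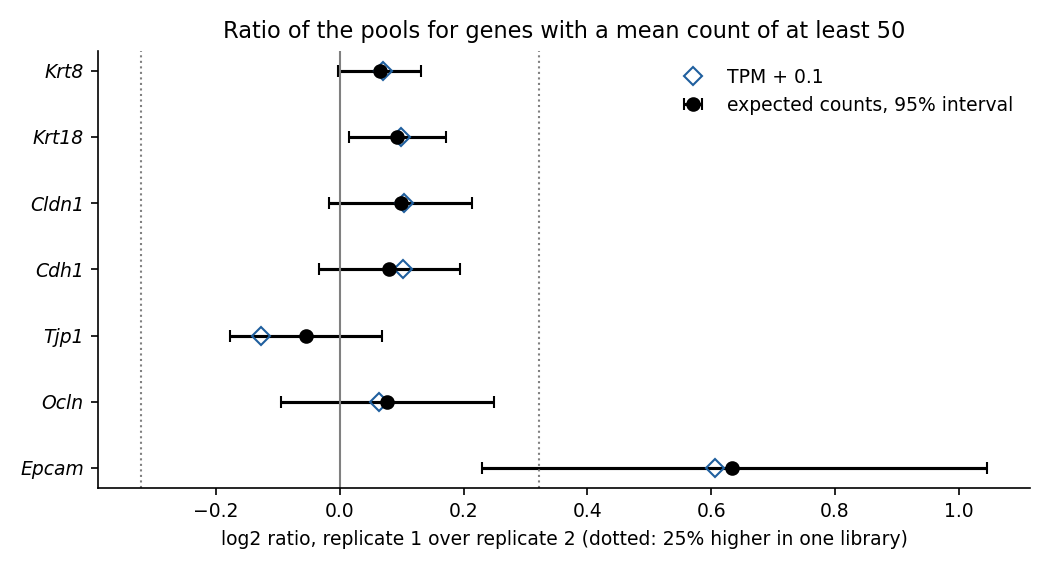
Log2 ratio of replicate 1 over replicate 2 for the 7 genes with a mean count of at least 50: filled points are folds of expected counts with exact 95% counting intervals, open diamonds are log2 ratios of TPM + 0.1, and dotted lines mark a 25% higher level in either library. Epcam, at 0.61 by TPM, lies past the line and the other 6 lie within it.

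A few other low epithelial genes were also higher in replicate 1. Krt19 had 221 and 115 reads, a fold of 1.77 (1.41 to 2.24), and Cldn6 had 86 and 27 reads, a fold of 2.94 (1.89 to 4.71). In the list of 9 epithelial transcription and splicing factors, 5 averaged at least 50 counts and 2 of these were at least 25% higher in replicate 1, against 3.76% of all genes and 14.4% of those with a mean count of 50 to 200: Elf3 (1.58 and 0.95 TPM) and Grhl1 (0.62 and 0.40 TPM). The other 3, Esrp2 (5.69 and 6.84 TPM), Klf5 (0.98 and 1.14 TPM) and Grhl3 (0.89 and 0.94 TPM), had the lower value in replicate 1, and the median log2 ratio of the 5 was -0.07. Grhl1 and Grhl3 lie outside the rule for named genes and were chosen after their values were seen. The bile duct keratin Krt7 did not share this, with 306 and 308 reads. Of the 6 cholangiocyte markers, with summed TPM of 17.5 and 15.1, 5 were detected, all 5 with a mean count of at least 50. Of these 5, 2 were at least 25% higher in replicate 1, Krt19 and Spp1, against the same 3.76% and 14.4%. The counting interval of Spp1 (92 and 67 reads), 0.914 to 1.76, included 1. The defining marker Sox9 was at 2.12 and 2.38 TPM, and Cftr was near 0 at 0.12 and 0.04 TPM. Among the 6 gut, pancreas and lung markers, Pdx1 had 14 and 3 reads and Cdx2 had 2 and 0, while Vil1 had 67 and 71. The 2 of them with a mean count of at least 50 had a median log2 ratio of -0.02, with 1 above and 1 below 0. The part of these markers in the Epcam ratio was not tested.

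The remaining lists place these genes among genes of other cell contacts. In bulk samples the cells that carried them, epithelial or not, cannot be told apart. Desmosomes anchor keratin at the membrane. The genes listed for them were low: 4 of 7 were detected, the highest being Pkp4 (6.41 and 6.39 TPM), Pkp2 (5.07 and 6.19 TPM) and Dsg2 (3.97 and 4.08 TPM). Of 5 keratin-linking plakin genes, 3 were detected: Plec (5.72 and 6.20 TPM), Dst (4.41 and 4.43 TPM) and Dsp (1.79 and 1.97 TPM), the desmoplakin gene. Gap junction genes had 6 of 7 detected, led by Gjb1, the main hepatocyte connexin gene, at 35.4 and 34.1 TPM, with Gja1 at 9.96 and 11.3 TPM and Gjc1 at 7.58 and 8.27 TPM. Of the desmosome and plakin genes, 4 of each list averaged at least 50 counts. None of these passed the 25% difference between pools, against 8.68% of all genes. Of the 6 gap junction genes with that count 1 did, Gjb2 (1.78 and 3.03 TPM, lower in replicate 1). Of all genes 4.92% passed in that direction, and 31.5% of those with a mean count of 50 to 200 passed in either direction.

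Of the epithelial transcription and splicing factors, 1 of 9 was detected, the splicing factor gene Esrp2 at 5.69 and 6.84 TPM. Its paralogue Esrp1 was at 0.14 and 0.12 TPM, and Grhl2, an activator of Cdh1 in many epithelia, at 0.10 and 0.09 TPM. These were named after their values were seen. Known repressors of Cdh1 had 6 of 8 detected, led by Tcf3 (96.3 and 99.9 TPM), Zeb2 (18.2 and 19.9 TPM) and Zeb1 (7.24 and 7.63 TPM). All 3 are also used in blood or mesenchymal cells.

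In a few lists the small pool differences mostly had 1 sign. Of the 12 scaffold and polarity genes with a mean count of at least 50, 1 had a ratio above 1, against 52.1% of all genes, and the median log2 ratio was -0.11. At least 25% lower in replicate 1 by TPM was 1 of the 12, Mpdz (4.43 and 5.93 TPM), against 4.92% of all genes. By reads, 632 and 707, the fold of Mpdz was 0.824 (0.739 to 0.919), which falls short of that difference. The other tight junction membrane genes lay on the other side, with 5 of 6 above 1 and a median of 0.07. All 6 Cdh1 repressors with that count were lower too, with a median of -0.06. Of these, 1 passed, Twist1 (1.11 and 2.42 TPM), against the same 4.92% of all genes. Of the 6 gap junction genes with that count, 1 had a ratio above 1 and 5 were below, with a median of -0.15. All 4 keratin-linking plakin genes with that count were below 1, with a median of -0.08. The adherens junction genes had a median of 0.04 and the hepatoblast markers of 0.01. On the spike-in scale, which adds 0.12, the medians of the scaffold, repressor and plakin lists are above 0. The median of the gap junction list stays below 0 there. Over all genes the median log2 ratio moved with length, from 0.03 in the shortest sixth of genes to -0.03 in the longest sixth. Its part in the direction of these lists was not tested.

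**Figure D5:**
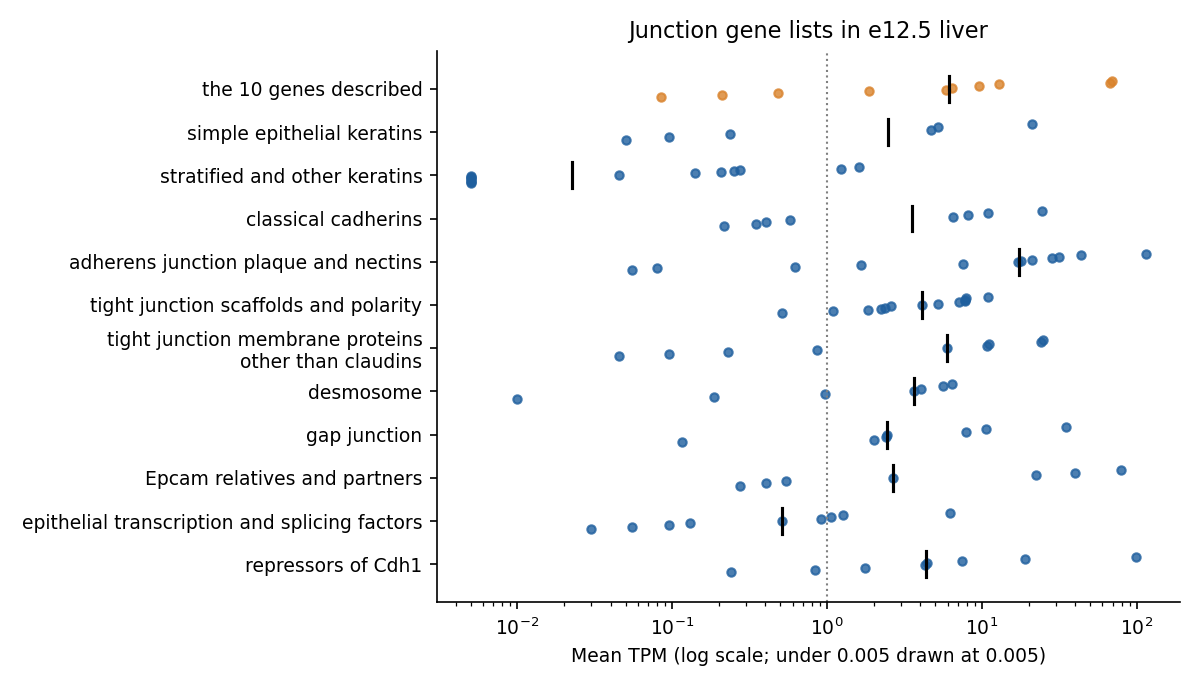
Mean TPM of both libraries (log scale) for each gene of 11 junction-related lists and the 10 genes described, with a black bar at each list's median and a dotted line at 1 TPM. The adherens junction list has the highest median, 17.4 TPM, and the stratified keratins the lowest, 0.0225 TPM.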

How the data were processed

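Gene and transcript tables of 2 libraries of e12.5 mouse liver were used. The authors quantified the reads of each library alone on mm10 with GENCODE M4, per the file headers. RNA was extracted with an Ambion mirVana kit and carried spike-ins, per the labels. Which aligner and quantifier were used, and whether the libraries keep strand, is not given in the sources used here. Expected counts, as deposited, are estimated reads, not normalized. The deposited TPM and FPKM values are scaled by effective length and depth over all entries, spike-ins and tRNA entries included. The deposited bounds of TPM, a signal on the TPM scale, the posterior SD of counts and the percent of a gene's TPM per transcript are also deposited columns. Shares were recomputed here from transcript TPM.

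Symbols were matched by unversioned identifier for 42462 of 43346 mouse genes. Coordinates (1-based), exon structure and the printed sequences come from mm10 with GENCODE M21. Both Tjp1 models have the same lengths there as in the tables.

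Depth was 37.6 M and 34.7 M expected counts. Detection was TPM of at least 1 in both libraries. Log2 ratios used a pseudocount of 0.1 TPM, which understates the ratios of low genes. Counting intervals are exact 95% Clopper-Pearson intervals of replicate 1's part of the rounded counts at the libraries' mouse-gene totals. The simulated counts used to check them held counting error alone, so that check does not cover other variation. Reads were amplified without molecular identifiers and do not each stand for 1 molecule, so intervals and the floor of 3 reads cover counting error only. With 1 group no test between conditions and no p-value was possible. The labels call the libraries biological replicates from separate pools.

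The 10 genes and the 20 other lists were chosen with earlier results of these data known. One listed gene, Eppk1, was not analysed here, and some listed genes are not reported here by name. Named genes are the 10, the 3 highest by mean TPM of each list, every claudin and keratin with a mean TPM of at least 1, and transcripts with at least 10% of a gene's TPM. Genes in text outside this rule serve as family members or markers and were chosen with their values seen. With 2 libraries no likeness of patterns was computed. Alternatives used edgeR 4.0.16 (TMM) and DESeq2 1.42.0 size factors in R 4.3.3, spike-in centring, other pseudocounts, floors and count filters, other deposited units and each library alone. Other steps used Python 3.11.15, pandas 2.3.3, scipy 1.17.1 and matplotlib 3.10.9.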

Additional observations from a re-analysis of the deposited data

How the results depend on the processing

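The number of detected genes among the 10 was 7 under a floor of 0.5 TPM, mouse genes only, posterior mean TPM, FPKM and either library alone, and 6 under a floor of 5 TPM, which Epcam does not reach. The number past the 25% difference between pools was 1 under pseudocounts of 1 and 0.01, TMM, DESeq2 size factors and spike-in centring. It was 2 with no count filter, which adds Cldn14 (4 and 9 reads), and 0 at a mean count of at least 500, which leaves Epcam out. Counting intervals that excluded 1 were 2 with TMM, 3 with DESeq2 size factors (Krt8 added) and 6 on the spike-in scale, where Tjp1 alone included 1. The ratio of Krt8 to Krt18 was 1.36 by expected counts, which are not scaled by length, and 1.03 to 1.05 in either library alone. The share of the 4 claudins was 15.1% by expected counts and 5.88% to 6.16% in either library alone. The count of genes with the same top transcript was 3 under each alternative. The alpha-minus share of Tjp1 TPM, added after seeing the data, was 5.91% to 14.3% in either library alone, 11% by expected counts and 10.2% by posterior mean TPM. No paired analysis was possible because the 2 libraries form 1 group. Depth limits Cldn2, Cldn3 and Cldn14, with at most 18 reads a library.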
